A study of Rattus norvegicus with 12 samples.

Results

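The feedback regulators and inflammatory transcription factors described here are 9 rat genes, Dusp1, Dusp6, Zfp36, Nfkbia, Cebpb, Cebpd, Fosl2, Ier2 and Tsc22d1. They were chosen by gene symbol from the 3939 named genes of the array, with their log2 ratios at 6 h and 2 h after lipopolysaccharide (LPS) already known, and 10 probes report them, 2 of these on Dusp6. Rats had received LPS, a bacterial outer membrane molecule whose receptor on blood leukocytes is Toll-like receptor 4. The title of the series alone gives blood as the tissue. On each 2-colour array the RNA of 1 rat was hybridised together with that of a control pool. The 6 h group holds LPS rats 2, 4 and 6, the 2 h group holds LPS rats 1, 2 and 3, and each time has a control pool of its own. Each rat was hybridised on 2 arrays, called fluor (control pool in channel 1) and flip (channels exchanged), and the mean of both arrays is the value of the rat (n = 3 per time, 12 arrays in all). The sources used here do not give the strain, sex or age of the rats, the dose and route of LPS, or how the pools were made. The rats numbered 2 at 6 h and at 2 h were treated as different animals, though the labels do not say so, and nothing in the labels says how the rats of a time relate to each other.

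LPS recognition activates the mitogen-activated protein kinases (MAPKs) and the factor NF-kappaB within minutes, and these switch on genes that need no new protein. Among them are brakes on the same pathways. Dusp1 encodes a nuclear phosphatase that inactivates p38 and JNK kinases, Dusp6 a cytoplasmic phosphatase that prefers ERK kinases, Zfp36 the protein tristetraprolin, which speeds decay of mRNAs such as that of Tnf, and Nfkbia the inhibitor IkappaB-alpha, which holds NF-kappaB in the cytoplasm. Cebpb and Cebpd encode C/EBP factors of the acute phase response, and Fosl2 the AP-1 subunit Fra-2. Ier2 is an immediate early gene, and Tsc22d1 encodes a leucine zipper protein induced by transforming growth factor beta.

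RefSeq windows of the GRCr8 build were searched over the 250 bases before each annotated start, on both strands, to show what inducible elements lie beside these genes. Of the 9 genes 8 had a window, 9 windows in all, since Tsc22d1 had 2 start sites. The motifs were the cyclic AMP response element (CRE) TGACGTCA, its shorter core TGACG, the AP-1 site TGANTCA, the C/EBP site TTGCNNAA, the NF-kappaB consensus and the core of the serum response element. Every CRE also holds the core on both strands. The 4 windows below are those that held a full CRE, an NF-kappaB match or a serum response match, written 5′ to 3′ on the strand of the gene, with the matches in capitals.
Dusp1, GRCr8 chr10:17184603-17184852, plus strand: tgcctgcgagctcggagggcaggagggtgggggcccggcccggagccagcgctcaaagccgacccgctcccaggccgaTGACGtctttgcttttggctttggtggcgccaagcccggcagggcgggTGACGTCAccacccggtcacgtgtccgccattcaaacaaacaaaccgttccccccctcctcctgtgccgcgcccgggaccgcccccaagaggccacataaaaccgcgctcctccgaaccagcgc
Ier2, GRCr8 chr19:40399123-40399372, plus strand: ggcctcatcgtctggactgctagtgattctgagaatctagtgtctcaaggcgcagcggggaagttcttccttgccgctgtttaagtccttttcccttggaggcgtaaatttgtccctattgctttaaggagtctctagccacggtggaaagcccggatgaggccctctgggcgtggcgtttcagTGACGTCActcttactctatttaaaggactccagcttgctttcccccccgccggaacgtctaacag
Nfkbia, GRCr8 chr6:78597073-78597322, minus strand: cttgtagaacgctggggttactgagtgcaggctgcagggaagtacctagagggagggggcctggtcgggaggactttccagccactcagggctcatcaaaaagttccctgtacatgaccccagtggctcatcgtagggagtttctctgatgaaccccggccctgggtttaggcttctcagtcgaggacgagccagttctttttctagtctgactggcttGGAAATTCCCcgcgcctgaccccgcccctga
Zfp36, GRCr8 chr1:92799109-92799358, minus strand: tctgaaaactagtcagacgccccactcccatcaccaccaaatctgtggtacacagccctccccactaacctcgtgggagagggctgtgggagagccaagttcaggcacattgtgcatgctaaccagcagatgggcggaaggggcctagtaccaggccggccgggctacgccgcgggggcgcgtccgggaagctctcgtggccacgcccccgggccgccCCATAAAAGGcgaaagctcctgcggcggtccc

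The CRE of Dusp1 lay 117 to 124 bases before the start and that of Ier2 59 to 66 bases before it, and a further core stood 168 to 172 bases before the start of Dusp1. A full CRE was found in 1.59% of the 33469 windows of this length in the table, and a core in 18.2%. Nfkbia had an NF-kappaB match 22 to 31 bases before the start, a motif held by 3.54% of windows, though the annotated span of the gene (chr6:78593844-78597307) reaches into that window and covers the match. Zfp36 had the serum response core 23 to 32 bases before the start (1.5% of windows). Cebpb held 3 CRE cores and the second start site of Tsc22d1 held 1. In the windows of Dusp6 and Fosl2 and at the first start of Tsc22d1 none of these letters was found, and the AP-1 site (6.34% of windows) and the C/EBP site (9.22%) were in no window of the members. The annotated spans of Dusp6 (from chr7:35979502) and Tsc22d1 (from chr15:58159612) also reach into their windows. The window of the second start of Tsc22d1 lies wholly inside its span. A match is a run of letters and was not tested as a binding site.

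All values below are log2 ratios read as LPS over control pool, so that 1 is a doubling and 0 equals the pool. This direction is likely and not settled, since the dyes are not given. It rests on textbook LPS-induced genes outside the 9 members, of which 7 of 28 were measured. Il1b, Il1r2, Irf1 and Lcn2 lay above 0 on all 12 arrays, Sod2 on 10, and Tnf and Nfkb1 on 8 each. At 6 h 5 of these 7 rose and 0 fell by limma, and at 2 h 4 rose and 0 fell. Over all probes a rat's fluor array correlated with its flip array at -0.23 to 0.25, while arrays of the same orientation correlated at 0.38 or more. Under the other reading, with the sign of the flip arrays turned, 1 member and 1461 genes in all passed at 6 h and 1 member and 559 genes at 2 h, beside 749 and 755 genes as deposited, and Dusp1 lay below 0 at both times. Array medians lay between -0.020 and 0.0083, so the arrays were centred before deposit. None of the members was at the value that 242 to 298 probes of each array share. No intensities were at hand, so no level of a gene, no comparison of levels between genes and no check that a blood cell type was present could be made, and the number of arrays limits the precision.

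With limma fitted to all 3939 genes, 5 of the 9 members passed the threshold (Benjamini-Hochberg adjusted p under 0.05) at 6 h, 3 above and 2 below the pool, where 19.0% of all genes passed. At 2 h 6 members passed, 4 above and 2 below, where 19.2% of all genes passed. Those at 6 h were Dusp1, Dusp6, Zfp36, Cebpb and Tsc22d1. Those at 2 h were Dusp1, Dusp6, Cebpd, Fosl2, Ier2 and Tsc22d1. The members had been chosen with these values known, so nothing is read from the counts. Their median log2 ratio was 0.21 at 6 h and 0.14 at 2 h, beside medians of 0.0069 and -0.0070 over all genes. The count at 6 h was 3 without rat 2, 3 without rat 4 and 2 without rat 6 of that time, where the count over all genes, 749 with every rat, was 306, 415 and 390. The count at 2 h was 3 without rat 2 of that time, where 323 genes in all passed, against 755 with every rat. Dusp1, Zfp36, Cebpd and Fosl2 lay above 0 on all 12 arrays and Dusp6, as the mean of its probes, below 0 on all 12. Because the RNA came from a whole tissue, fewer cells of a type and less RNA per cell cannot be told apart in any of these ratios.

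**Figure D1:**
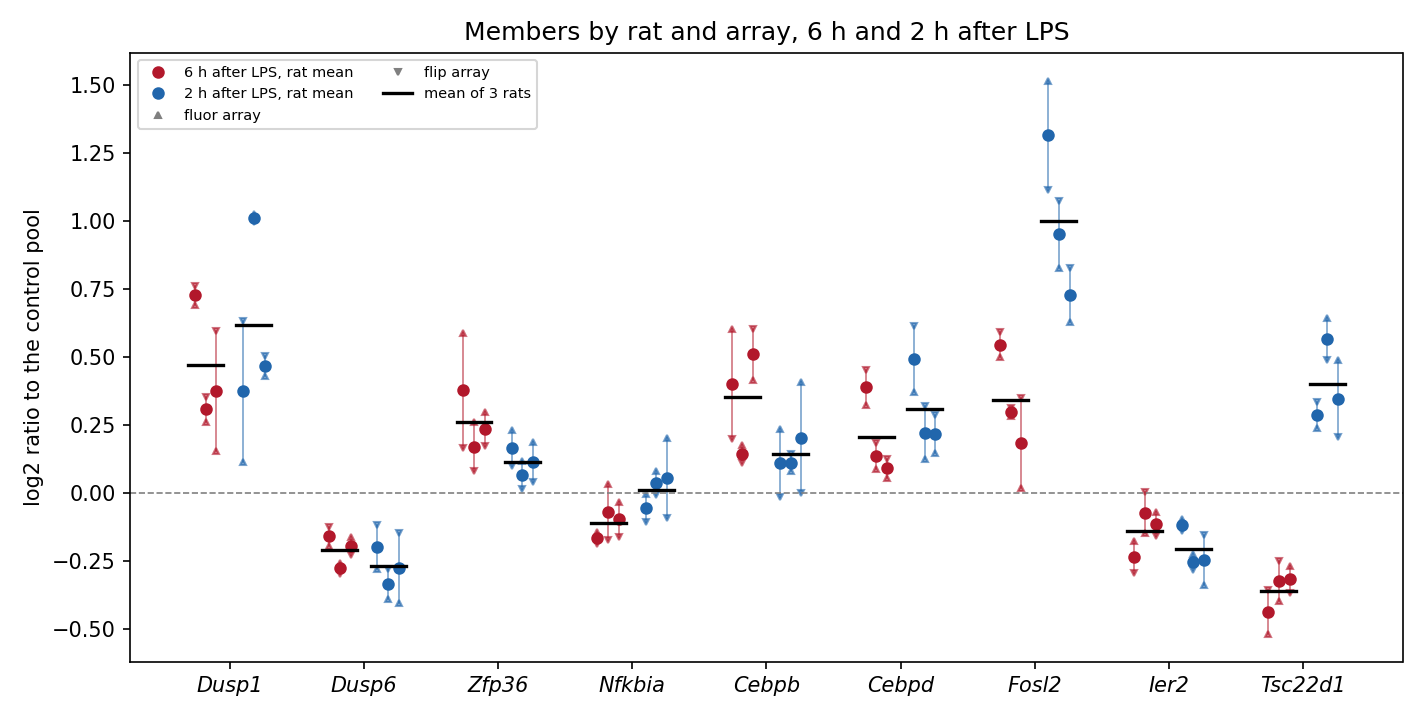
Log2 ratio to the control pool (vertical axis) of the 9 members (horizontal axis) for 3 rats at 6 h (red, left) and 3 rats at 2 h (blue, right). Circles are rats, triangles joined by a line are the fluor and flip arrays of the rat, and black bars are means of 3 rats. Tsc22d1 lies below 0 in every rat at 6 h and above 0 in every rat at 2 h, and Fosl2 has its 3 highest rats at 2 h.

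Among the MAPK phosphatases, Dusp1 stood above the pool at either time and Dusp6 below it. Dusp1 was at 0.73, 0.31 and 0.37 in the 6 h rats, against 0.37, 1.01 and 0.47 in the 2 h rats. Its means were 0.47 ± 0.22 at 6 h and 0.62 ± 0.34 at 2 h (SD, n = 3 each), or 1.39-fold and 1.53-fold over the pools, and the rats of both times overlapped. At 2 h a single animal, rat 2, was more than 0.5 above the other rats, and its fluor and flip arrays read 1.03 and 1.00. Dusp1 passed at 6 h (limma adjusted p = 0.0463) and at 2 h (0.0199). The 6 h call was lost without each of the 6 h rats (0.222, 0.0905 and 0.0993 without rats 2, 4 and 6). It was also lost on the fluor arrays alone (0.139) and with quantile normalization (0.0901). The 2 h call was lost without 2 h rat 2 (0.0631) and on the fluor arrays alone (0.0602).

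Dusp6 averaged -0.21 ± 0.061 at 6 h and -0.27 ± 0.068 at 2 h, and its rats overlapped between the times. This mean joins probes that did not read alike. Probe 141 was at -0.24, -0.42 and -0.33 in the 6 h rats, against -0.39, -0.64 and -0.56 in the 2 h rats. Probe 5110 was at -0.079, -0.13 and -0.054 in the 6 h rats, against -0.0038, -0.029 and 0.0062 in the 2 h rats. Each rat read lower on probe 141 than on probe 5110, and the lower of the times was 2 h on probe 141 and 6 h on probe 5110. With probe 5110 alone Dusp6 missed the threshold at either time (limma adjusted p up to 0.847 at 2 h), so the call of Dusp6 rests on probe 141. With both probes averaged, the 6 h call was lost without 6 h rat 4 (0.0614) or rat 6 (0.0519). The 2 h call was lost on the flip arrays alone (0.0645).

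**Figure D2:**
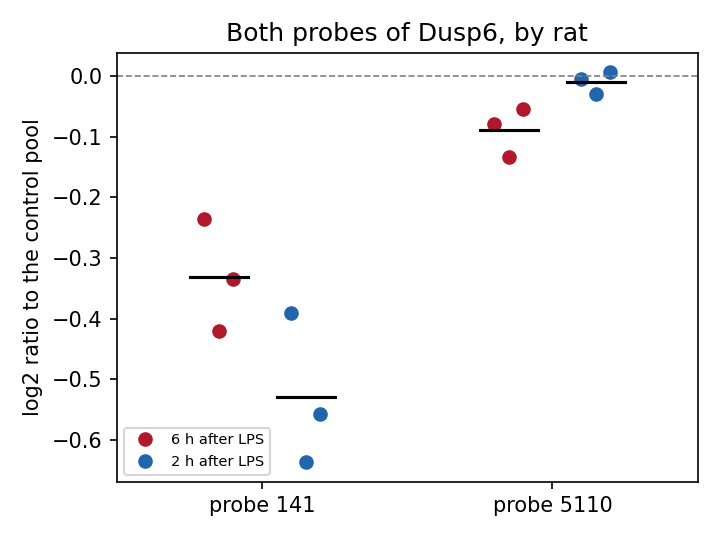
Log2 ratio to the control pool (vertical axis) on the 2 probes of Dusp6 (horizontal axis) in 3 rats at 6 h (red, left) and 3 at 2 h (blue, right), with bars at the means. Probe 141 averages -0.33 at 6 h and -0.53 at 2 h, whereas probe 5110 averages -0.089 and -0.0089.

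Of 13 other MAPK phosphatases listed, Dusp3, Dusp5 and Dusp8 were measured. Dusp3, a small phosphatase of ERK and JNK, fell at 6 h (-0.19 ± 0.037, limma adjusted p = 0.00528) and at 2 h (-0.14 ± 0.011, adjusted p = 0.0174) and lay below 0 on all 12 arrays. Dusp5 and Dusp8 did not pass. Of 28 kinases of the MAPK cascades 11 were measured, of which 2 rose and 2 fell at 6 h and 3 rose and 2 fell at 2 h. Map2k2, which activates ERK, fell at both times (-0.49 ± 0.029 at 6 h and -0.41 ± 0.065 at 2 h, adjusted p = 0.000205 and 0.000704). Mapk6, the atypical kinase ERK3, rose (0.24 ± 0.085 and 0.25 ± 0.11). The p38 activators Map2k6 and Map2k3 rose at 2 h (0.31 ± 0.13 and 0.29 ± 0.14) and stood at 0.049 and 0.069 at 6 h, without passing there. Neither difference between the times passed the test (adjusted p = 0.175 and 0.348). The medians of the kinases were 0.069 at 6 h and 0.038 at 2 h.

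Zfp36 lay above the pool on every array, with small ratios. It was at 0.38, 0.17 and 0.24 in the 6 h rats, against 0.17, 0.068 and 0.11 in the 2 h rats, so that the lowest 6 h rat was just above the highest 2 h rat. The means were 0.26 ± 0.11 at 6 h and 0.12 ± 0.049 at 2 h. The difference of 0.15 (SE 0.062) had a 95% interval of -0.0017 to 0.29 and did not pass the test over all genes (limma adjusted p = 0.352). Of 13 other factors of mRNA decay 4 were measured, Zfp36l1, Zc3h12a, Cnot1 and Cnot8. Of these limma called 0 at 6 h (1 at unadjusted p under 0.05), where they lay between -0.080 and 0.096, and at 2 h Cnot1, the scaffold of the deadenylase complex that tristetraprolin recruits, rose (0.14 ± 0.027, adjusted p = 0.0192).

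Nfkbia, the textbook NF-kappaB target whose window above holds the NF-kappaB match, stayed near the pool. It was at -0.17, -0.070 and -0.096 in the 6 h rats, against -0.055, 0.037 and 0.055 in the 2 h rats. All 6 h rats were lower than all 2 h rats, with means of -0.11 ± 0.049 and 0.012 ± 0.059. The difference of -0.12 (SE 0.049, 95% interval -0.24 to -0.0061) did not pass over all genes (adjusted p = 0.319). Nfkbia lay above 0 on 1 of 6 arrays at 6 h and on 2 of 6 at 2 h. Of 20 other NF-kappaB subunits and regulators 3 were measured, and limma called 0 of them at either time (1 at 6 h and 2 at 2 h at unadjusted p under 0.05). Nfkb1, the precursor of p50, was at -0.099 ± 0.065 at 6 h and 0.11 ± 0.082 at 2 h, the inhibitor gene Nfkbib at 0.020 and 0.076, and the kinase gene Ikbkb at 0.048 and 0.13.

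Of the C/EBP genes Cebpb had its higher mean at 6 h and Cebpd at 2 h, with overlapping rats in either case. Cebpb was at 0.40, 0.14 and 0.51 in the 6 h rats, against 0.11, 0.11 and 0.20 in the 2 h rats, with means of 0.35 ± 0.19 and 0.14 ± 0.053. Rat 4 of the 6 h group read as low as the 2 h rats. Cebpd was at 0.39, 0.14 and 0.091 in the 6 h rats, against 0.49, 0.22 and 0.22 in the 2 h rats, with means of 0.21 ± 0.16 and 0.31 ± 0.16. A single rat at each time, rat 2 at 6 h and rat 1 at 2 h, stood well above the other 2 of its time. Cebpb passed at 6 h (limma adjusted p = 0.0120) and lost that call without 6 h rat 2 (0.0832) or rat 6 (0.0568). Cebpd passed at 2 h (0.0303) and not at 6 h (0.0928). Its 2 h call was lost without each of the 2 h rats (0.107, 0.0805 and 0.0554 without rats 1, 2 and 3). The differences between the times were 0.21 (95% interval -0.011 to 0.43) for Cebpb and -0.11 (-0.35 to 0.14) for Cebpd, and neither passed (limma adjusted p = 0.367 and 0.705). Of 5 other C/EBP genes listed Ddit3, the stress-induced factor CHOP, was measured. Its 6 h mean of 0.25 ± 0.19 passed (limma adjusted p = 0.0378) but joins orientations that differed in sign. Its fluor and flip means were -0.22 and 0.73 at 6 h and -0.42 and 0.63 at 2 h.

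Fosl2 had the largest ratio of the 9 members at 2 h. It was at 0.55, 0.30 and 0.19 in the 6 h rats, against 1.32, 0.95 and 0.73 in the 2 h rats. Every 2 h rat was above every 6 h rat. The means of 0.34 ± 0.18 and 1.00 ± 0.30 correspond to 1.27-fold at 6 h and 2.00-fold at 2 h, and the 2 h mean was above that of 99.6% of genes. The difference of -0.66 (SE 0.16, 95% interval -1.03 to -0.29) missed the threshold over all genes (adjusted p = 0.118) and passed it in the fit of all 12 arrays with the rat as a random block (adjusted p = 0.0299). That fit counts the 2 arrays of a rat as nearly separate replicates (consensus correlation 0.128). It called 131 genes between the times, against 20 in the fit of the rat means, so the pass is no added support. Of 21 other AP-1, ATF and CREB genes 5 were measured, Fosl1, Mafk, Mafg, Batf and Creb3. At 6 h limma called 0 of these 5 (1 at unadjusted p under 0.05), with Mafg at 0.12 (adjusted p = 0.0637), and at 2 h Mafg, a small Maf protein, rose (0.14 ± 0.079, adjusted p = 0.0403). Fosl1, the other Fra gene, was at -0.0087 at 6 h and 0.00050 at 2 h.

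Ier2 lay below the pool, on 5 of 6 arrays at 6 h and on all 6 at 2 h. It was at -0.24, -0.072 and -0.11 in the 6 h rats, against -0.12, -0.25 and -0.24 in the 2 h rats. The rats of both times overlapped, with means of -0.14 ± 0.085 at 6 h and -0.21 ± 0.077 at 2 h. Ier2 passed at 2 h (limma adjusted p = 0.0207) and not at 6 h (0.0638). Its 2 h call was lost without 2 h rat 2 or rat 3 and on the flip arrays alone. The highest adjusted p among these was 0.108. Of 24 other immediate early genes 10 were measured, of which 1 rose and 1 fell at 6 h and 1 rose and 4 fell at 2 h. Btg1, an antiproliferative gene, fell at both times (-1.12 ± 0.29 at 6 h and -0.76 ± 0.13 at 2 h, limma adjusted p = 0.000597 and 0.00389). Klf10 and Rgs2 fell at 2 h (-0.39 ± 0.086 and -0.26 ± 0.030) and were at 0.21 and 0.00090 at 6 h, without passing there. Their differences between the times, 0.61 and 0.26, narrowly missed the threshold (adjusted p = 0.0712 and 0.0552). The fluor and flip means of Klf10 were -0.12 and 0.55 at 6 h and -0.75 and -0.041 at 2 h. Those of Rgs2 were -0.082 and 0.084 at 6 h and -0.41 and -0.10 at 2 h. For both genes the 6 h mean joins orientations of opposite sign, and the 2 h fall was larger on the fluor arrays. Egr4, a zinc finger factor, rose at 2 h (0.38 ± 0.15, adjusted p = 0.0458), and Egr1 stood at -0.12 at 6 h and -0.051 at 2 h. The medians of the 10 genes were 0.0038 at 6 h and -0.068 at 2 h, while their mean per rat was -0.11 to -0.088 at 6 h and -0.14 to -0.089 at 2 h. Without Btg1, a choice made after seeing the data, the mean of the other 9 was -0.032 to 0.049 at 6 h and -0.053 to -0.024 at 2 h.

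Tsc22d1 took opposite signs at the 2 times. It was at -0.44, -0.32 and -0.32 in the 6 h rats, against 0.29, 0.57 and 0.35 in the 2 h rats. All 6 arrays at 6 h were below 0 and all 6 at 2 h above 0, fluor and flip alike. The means were -0.36 ± 0.068 at 6 h (0.779-fold of the pool) and 0.40 ± 0.15 at 2 h (1.32-fold). The difference of -0.76 (SE 0.079, 95% interval -0.95 to -0.57) passed over all genes (limma adjusted p = 0.0225) and made Tsc22d1 the 1 member of 9 called between the times, where 0.508% of all genes were called. It is 0.591-fold at 6 h relative to 2 h and also holds any difference between the control pools. Both means were known when Tsc22d1 was chosen, so the test is no independent support for them. The adjusted p was 0.0993 without 6 h rat 2 and 0.0844 without 6 h rat 6, with the difference at -0.72 and -0.78, and 0.0617 on the fluor arrays alone, with the difference at -0.85. The annotation does not say which of the start sites of Tsc22d1 (its gene spans chr15:58159612-58260244) the transcripts read by this probe use.

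**Figure D3:**
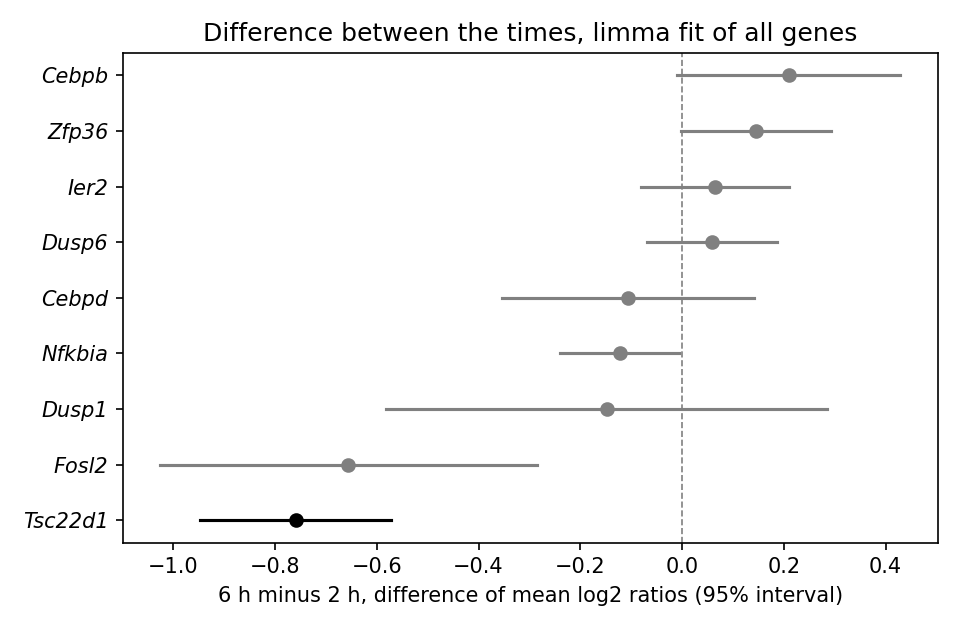
Difference between the mean log2 ratios, 6 h minus 2 h (horizontal axis), for each member, with 95% intervals from the limma fit of all genes, not adjusted for the number of genes. Tsc22d1, in black, at -0.76, is the member past the adjusted threshold. Fosl2 follows at -0.66, and the other 7 lie between -0.15 and 0.21.

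Of 8 listed TSC22 and glucocorticoid-related genes 4 were measured, of which 2 rose and 0 fell at either time. Nr3c1, the glucocorticoid receptor, rose to 0.99 ± 0.093 at 6 h and 0.53 ± 0.12 at 2 h (limma adjusted p = 9.2e-05 and 0.0012), and its difference between the times of 0.46 missed the threshold (adjusted p = 0.0594). Anxa1, an anti-inflammatory annexin, rose to 1.94 ± 0.62 at 6 h and 2.65 ± 0.58 at 2 h. Tsc22d4 (-0.11 ± 0.28 at 6 h and 0.034 ± 0.094 at 2 h) and the clock gene Per1 (-0.030 ± 0.048 and 0.077 ± 0.062) did not pass. Of 18 cytokine feedback inhibitors 2 were measured. The decoy receptor Il1r2 rose at both times (0.73 ± 0.24 and 0.62 ± 0.092), and Spry1, an inhibitor of receptor tyrosine kinase signalling, rose at 2 h (0.38 ± 0.22, adjusted p = 0.0309) and stood at -0.027 at 6 h.

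Over all the lists used here limma called 27 genes at 6 h and 36 at 2 h, of which 15 and 14 passed whichever single rat was left out. Map2k2, Btg1, Nr3c1, Anxa1 and Il1r2 were among these at both times, Dusp3 at 6 h and Rgs2 at 2 h. Without rat 2 of the 2 h group the 2 h calls of Dusp3, Mapk6, Map2k6, Map2k3, Cnot1, Mafg, Klf10, Egr4 and Spry1 were lost. Without rat 2 of the 6 h group the 6 h calls of Mapk6, Ddit3, Tnf and Lcn2 were lost, and among the genes that the direction rests on Irf1 lost its 2 h call without any 1 of the 2 h rats. Each of these except Mapk6 and Map2k6 at 2 h and Tnf and Lcn2 at 6 h also lost its call without at least 1 other rat, and the highest adjusted p was 0.221, for Egr4.

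What depends on the orientation of the channels was measured as the difference between the fluor and the flip array of each rat. Apart from scale it holds the same values as the ratios with the sign of the flip arrays turned. Under that other reading it would be the LPS ratio, so calling it an orientation effect rests on the direction taken here. The values of single arrays were known when the members were chosen, so the orientation difference too is a description. Of the members 3 passed, where 46.2% of all genes passed, and nothing is read from that count. Zfp36 read higher on the fluor array in 6 of 6 rats, by a mean of 0.19, and Nfkbia in 6 of 6 rats, by 0.14. Cebpd read lower on the fluor array in 6 of 6 rats, by 0.15. For Zfp36 this gap is of the size of its ratio: its fluor and flip means were 0.38 and 0.14 at 6 h and 0.18 and 0.052 at 2 h. For Nfkbia they were -0.048 and -0.17 at 6 h and 0.093 and -0.069 at 2 h, so its sign at 2 h differed between the orientations. Dusp1 had the largest mean gap of the members (-0.195) and did not pass, though it passed with scale normalization. Its fluor and flip means were 0.37 and 0.57 at 6 h and 0.52 and 0.71 at 2 h. Tsc22d1 (0.023) and Fosl2 (-0.083) did not pass either. The mean gap of Tsc22d1 joins gaps of opposite sign. Its fluor and flip means were -0.39 and -0.32 at 6 h and 0.46 and 0.34 at 2 h. Those of Fosl2 were 0.27 and 0.42 at 6 h and 0.99 and 1.01 at 2 h. With the median of the 5 numbered neighbours on each side subtracted from every probe, Zfp36, Nfkbia and Cebpd did not pass and Cebpb passed instead.

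**Figure D4:**
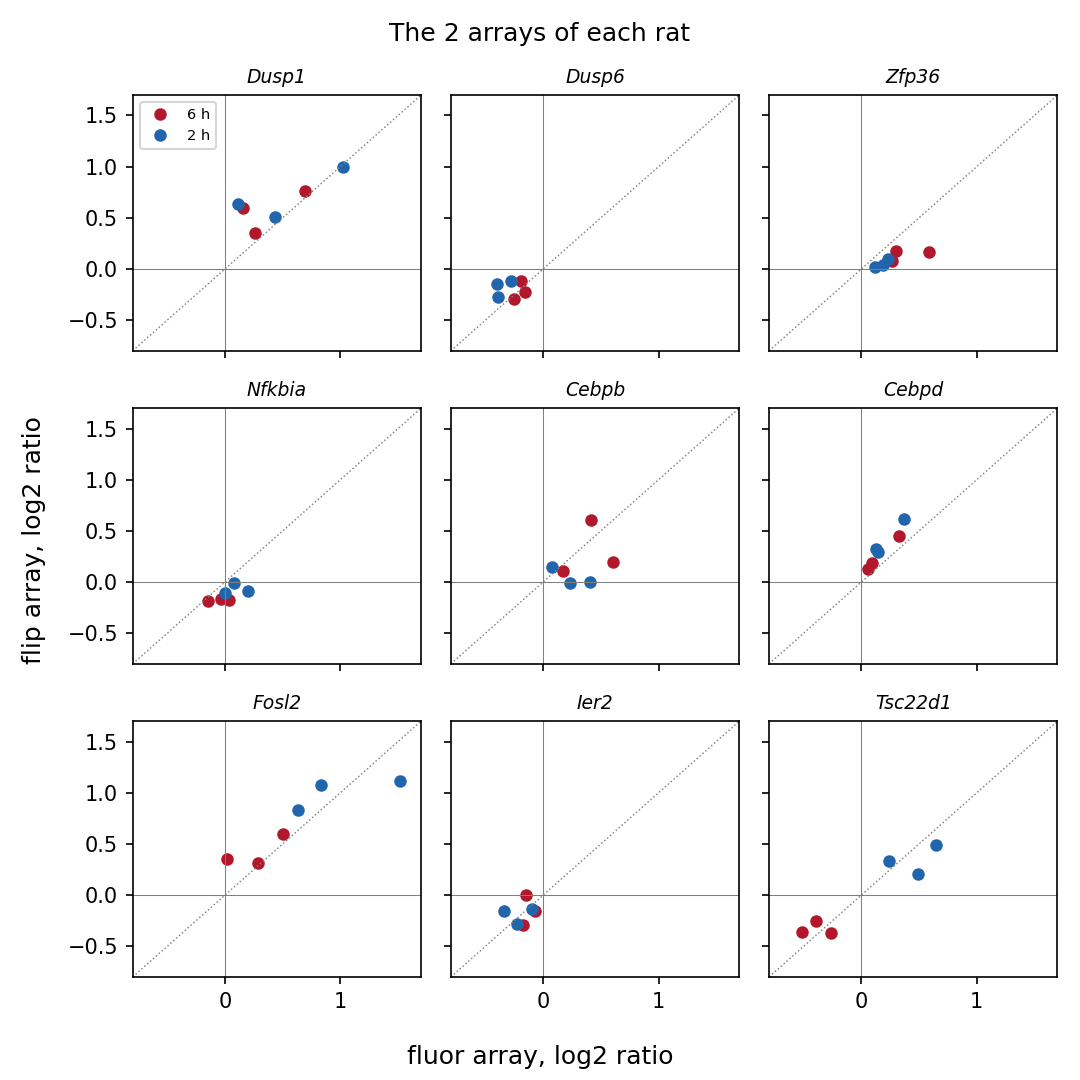
Log2 ratio on the fluor array (horizontal axis) against the flip array (vertical axis), 1 panel per member and 1 point per rat, 6 h in red and 2 h in blue, with a dotted line where both arrays are equal. All 6 points of Zfp36 and Nfkbia lie below the line and all 6 of Cebpd above it, and the points of Tsc22d1 fall in 1 cluster below 0 at 6 h and 1 above 0 at 2 h.

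The members did not follow a common pattern over the 12 arrays. Among their 36 pairs Pearson correlations ran from -0.72 (Dusp6 and Nfkbia) to 0.71 (Zfp36 and Cebpb), with a median of -0.088, and 5 pairs were above 0.5. The arrays share pools, rats and orientation, so these are descriptions. The named gene most like each member by this measure was Mt2A for Dusp1 (0.82), Cxxc5 for Dusp6 (0.89), Ifitm3 for Zfp36 (0.90), Ryr1 for Nfkbia (0.95) and Alox5ap for Cebpb (0.90). It was Cand1 for Cebpd (0.84), Il2rb for Fosl2 (0.92), Rpl35a for Ier2 (0.88) and Timp2 for Tsc22d1 (0.93). None of the 9 was itself a member, and Ryr1, the closest of all, had means of 0.27 at 6 h and 0.69 at 2 h, well apart from those of Nfkbia.

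Markers of blood cell types moved at the same times as the members. Of 17 neutrophil markers 5 were measured, of which 2 rose at 6 h, and 3 rose and 1 fell at 2 h. Their mean per rat ranged from 0.44 to 0.73 at 6 h and from 0.71 to 0.93 at 2 h, whereas their median was -0.034 at 6 h and 0.57 at 2 h. S100a9, a calcium-binding protein of neutrophils, carried the largest part (2.70 ± 0.44 at 6 h and 2.98 ± 0.53 at 2 h), and Lcn2 is also on the list of LPS-induced genes. Lcn2 rose as well, to 0.61 ± 0.0096 at 6 h and 0.69 ± 0.33 at 2 h (limma adjusted p = 0.00856 and 0.00586). The remaining markers, S100a8, Hdc and Chi3l1, did not rise at both times. S100a8 was at -0.053 at 6 h and -0.083 at 2 h without passing, and Hdc at -0.034 and -0.15. Chi3l1 was at -0.37 at 6 h, without passing, and 0.57 at 2 h. Of 16 T cell markers 5 were measured, of which 3 fell at 6 h and 2 at 2 h, with rat means of -0.35 to -0.16 and -0.30 to -0.26. Of 12 B cell markers 2 were measured, and 1 fell at 6 h and 2 at 2 h. Of 14 monocyte and macrophage markers 3 were measured, and 2 fell at 6 h and 1 at 2 h. Of 17 erythroid markers 8 were measured, of which 3 fell at 6 h, and 4 rose and 1 fell at 2 h. Their rat means were -0.055 to 0.20 at 6 h and 0.15 to 0.38 at 2 h, with medians of 0.15 and 0.20. The marker that fell at 2 h, Hba-a1, had fluor and flip means of -0.35 and 0.077 at 2 h and -0.26 and 0.010 at 6 h. NK and cytotoxic markers had 2 of 4 up at either time, and of the platelet markers limma called 0 of 2 at 6 h (1 at unadjusted p under 0.05, rat means -0.42 to -0.025) and 1 of 2, which rose, at 2 h (0.071 to 0.38). Several marker calls depended on single rats. Blnk (B cell), Gp9 (platelet) and Hdc (neutrophil) at 2 h passed in at most 1 of the 6 fits without 1 rat. Hbb and Hba-a1 (erythroid), Ccr7 (T cell) and C1qc (monocyte and macrophage) at 6 h passed in at most 2 of 6. S100a9, Cd37 (B cell), C1qb (monocyte and macrophage) and Gzmc (cytotoxic) passed in 6 of 6 at both times. The part of these cell types in the ratios of the members was not tested.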

How the data were processed

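The 12 arrays hold 6 rats, 3 per time. The deposited values are log2 ratios of the channels of an array, read so from the values, since no header states the base: raised as powers of 2 they return to ratios with 4 decimals in 100% of cases (ratios under 5, tolerance 0.05 of the last decimal), and with base e or 10 in at most 12.9%. The sources used here do not give the dyes, scanner, background correction, normalization or genome build. Probes were named from the platform annotation with symbols updated through gene identifiers. Of 7200 probes 4190 had 1 symbol, 46 several and 2964 none, and probes of a gene were averaged to 3939 genes. Each rat's arrays were averaged, a single model with a mean per time was fitted over the 6 rats with limma 3.58.1 in R 4.3.3 (lmFit, eBayes), and p-values were adjusted by Benjamini-Hochberg over all genes. Each pool counts as 1 control sample, so tests against 0 leave out its spread, and p-values measure the spread between these rats. The fit was checked on data with known changes. The named genes are the 9 members, the genes of fixed lists past the threshold (at most 4 per list with the largest mean), the genes used for the direction, and for each member the most correlated gene. Other measured genes of short lists were named after their values were seen. Promoter windows came from the RefSeq table of GRCr8. Alternatives are given in the closing section. Members, lists and tests were chosen with earlier results of these data known.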

Additional observations from a re-analysis of the deposited data

Results flagged for a closer look

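Tsc22d1 is the 1 member whose ratio differed between the times by the test of the difference itself, at -0.76 on the log2 scale (limma adjusted p = 0.0225), with 3 of 3 rats below 0 at 6 h and 3 of 3 above 0 at 2 h. A difference between the control pools of the 2 times cannot be told apart from it. Groups of 3 rats are too small to screen for a rat that stands apart.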

How the results depend on the processing

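Alternatives were the arrays of 1 orientation, scaling, quantile normalization, repeated values set to missing, subtraction of numbered neighbours, 1 probe per gene, all arrays with the rat as a random block, each time fitted alone, and each rat left out. Apart from the sign of the flip arrays, Zfp36 and Tsc22d1 at 6 h and Fosl2 and Tsc22d1 at 2 h passed in 16 of 16. The 16 are not separate checks. These genes have 1 probe each and are never at the repeated value, so the choice of probe and the missing values could not change their ratios. Leaving out a rat of the other time left their means unchanged and altered the estimate of the spread alone. The count of members past the threshold ran from 2 to 6 at 6 h, from 3 to 6 at 2 h and from 0 to 1 for 6 h minus 2 h with 1 rat left out. Over all alternatives the count of all genes called ran from 306 to 1461 at 6 h, from 323 to 1142 at 2 h and from 0 to 131 for 6 h minus 2 h. The fit of all arrays gave 9 members at 6 h, with 1107 genes in all, and 2 for 6 h minus 2 h (Fosl2 and Tsc22d1), with 131 genes in all, and the fluor arrays alone 0 for 6 h minus 2 h. In the fit of all arrays the consensus correlation within a rat was 0.128. The 2 arrays of a rat thus counted nearly as separate replicates, and its larger counts are no added support. Subtracting neighbours left 1 member, Cebpb, for fluor minus flip.

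With the flip arrays multiplied by -1, the other reading of the direction, 1 member passed at 6 h (Zfp36, with 1461 genes in all), 1 at 2 h (Cebpd, with the other sign, and 559 genes in all) and 0 for 6 h minus 2 h, where limma called 0 of all genes (484 genes and 1 member at unadjusted p under 0.05). Signs turned for Dusp1 (-0.10 at 6 h and -0.094 at 2 h), Dusp6 at 6 h (0.0059), Cebpd (-0.049 and -0.097), Fosl2 (-0.076 and -0.0066), Nfkbia at 6 h (0.063) and Ier2 at 6 h (0.0088). Tsc22d1 stood at -0.035 at 6 h and 0.058 at 2 h. No paired analysis was possible because the rats of the 2 times share 1 number. Without intensities, how signal over background limits these values is unknown.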

Other observations

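In a group of 3 rats some rat must be highest and another lowest for each gene. Within the 6 h group, rat 2 read highest or lowest for 8 of the 9 members and farthest from 0 for 7 of 9, the exceptions being Dusp6 and Cebpb. It was highest for Dusp1, Dusp6, Zfp36, Cebpd and Fosl2 and lowest for Nfkbia, Ier2 and Tsc22d1. In the 2 h group rat 1 read highest or lowest for 9 of the 9 members, and the farthest from 0 was rat 1 for 4 members, rat 2 for 4 and rat 3 for 1. The share over all genes was not worked out for either group, so nothing is read from these counts about the members.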
